A study of Mus musculus with 13 samples.

Results

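The unconventional myosins examined were Myo7a, Myo5a, Myo5b, Myo6, Myo10 and Myo9a, 6 of the 13549 genes in a table of raw RNA-seq read counts from cultured mouse oligodendrocyte lineage cells. They were chosen by name, starting from the lower Myo7a level in cells without Eed, and all 6 were in the table and passed the filter on low counts, which removed 0 genes. Eed encodes a subunit that Polycomb repressive complex 2 (PRC2) needs to place methyl groups on histone H3 at lysine K27, a mark under which many developmental genes stay silent. The study asked which genes PRC2 controls as these cells differentiate.

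The cells came from brains of C57BL/6 mice and were cultured in DMEM-Sato medium. Oligodendrocyte precursor cells (OPCs) grew in the presence of the mitogens PDGF and NT-3. Immature oligodendrocytes (iOLs) were collected on day 2 of differentiation, after PDGF was withdrawn and T3, the thyroid hormone, was added. The 4 groups were OPC control with 2 libraries, OPC Eed conditional knockout (cKO) with 3, iOL control with 2 and iOL Eed cKO with 2. The animals were at postnatal day 6 or 7: OPC control 1 and OPC Eed cKO 1 and 2 were from day 7, and the 6 other libraries from day 6. Genotype was read from the sample titles, because the separate genotype field carried the same knockout label for every RNA sample, controls included. The labels give neither the Cre line nor the floxed exons, nor say whether libraries of a group came from separate animals or cultures, so p-values measure the spread between these libraries, which may be technical. RNA libraries were made with a stranded poly(A) kit or, for low input, a SMARTer kit, and no source used here assigns the kits to libraries.

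Myosins are motors that move along actin filaments with energy from ATP. The conventional class forms the bipolar filaments of muscle and of contractile bundles, while the unconventional classes carry cargo, tether membranes or shape protrusions. Myosin VIIa, the product of Myo7a, is best known from the stereocilia of inner-ear hair cells and from the retinal pigment epithelium, and its loss causes Usher syndrome type 1B in humans and the shaker-1 phenotype in mice. Myosin Va carries melanosomes and neuronal endoplasmic reticulum towards the barbed ends of actin filaments, and myosin Vb moves Rab11 recycling endosomes. Myosin VI is the one class known to walk towards the pointed ends, and acts in endocytosis and autophagy. Myosin X gathers at the tips of filopodia, and myosin IXa holds a GTPase-activating domain that switches RhoA off. Myelinating cells extend many actin-rich processes before they wrap axons.

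Sequences at the gene starts are given because PRC2 targets in mammals are often rich in CpG. The windows span 250 bases before to 50 bases after an annotated start, and come from RefSeq on GRCm38.p6. A window was listed for 5 members, and the windows of Myo7a are set beside those of Myo5a and Myo9a, which have the most CpG among the members. Capitals mark every CG pair and every CAGCTG, an E-box sequence that reads the same on both strands and was picked after the Myo7a window had been seen. The letters of the 2 motifs cannot overlap. The first Myo7a window is chr7:98119444-98119743 on the minus strand, the second chr7:98109199-98109498 on the minus strand, the Myo5a window chr9:75070956-75071255 on the plus strand and the Myo9a window chr9:59750924-59751223 on the plus strand.
Myo7a, first start: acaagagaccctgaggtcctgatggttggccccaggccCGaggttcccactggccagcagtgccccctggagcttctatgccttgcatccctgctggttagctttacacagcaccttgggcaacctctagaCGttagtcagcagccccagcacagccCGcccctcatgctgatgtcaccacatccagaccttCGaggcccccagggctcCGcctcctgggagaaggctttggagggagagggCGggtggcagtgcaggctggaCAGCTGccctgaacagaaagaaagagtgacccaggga
Myo7a, second start: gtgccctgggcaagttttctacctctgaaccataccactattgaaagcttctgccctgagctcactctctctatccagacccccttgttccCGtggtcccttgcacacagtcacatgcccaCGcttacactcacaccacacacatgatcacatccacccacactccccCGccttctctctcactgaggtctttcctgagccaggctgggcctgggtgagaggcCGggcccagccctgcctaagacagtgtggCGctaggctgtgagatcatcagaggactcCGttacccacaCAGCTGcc
Myo5a: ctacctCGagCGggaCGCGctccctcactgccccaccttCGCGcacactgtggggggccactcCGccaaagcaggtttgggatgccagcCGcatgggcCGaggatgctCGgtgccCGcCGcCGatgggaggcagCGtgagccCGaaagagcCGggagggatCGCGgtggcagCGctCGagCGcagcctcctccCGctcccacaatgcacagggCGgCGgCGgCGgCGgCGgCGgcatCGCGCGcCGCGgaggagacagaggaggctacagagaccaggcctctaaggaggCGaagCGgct
Myo9a: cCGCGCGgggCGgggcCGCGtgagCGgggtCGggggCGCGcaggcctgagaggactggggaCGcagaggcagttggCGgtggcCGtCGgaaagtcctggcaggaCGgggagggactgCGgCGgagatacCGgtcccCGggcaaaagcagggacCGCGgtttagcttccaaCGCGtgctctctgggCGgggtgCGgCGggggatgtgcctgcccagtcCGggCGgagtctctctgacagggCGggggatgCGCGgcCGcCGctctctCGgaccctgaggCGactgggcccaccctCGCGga
Each Myo7a window holds 6 CG pairs, and 56.4% of all 32851 mouse windows of this length hold as many or more. The Myo5a window holds 36 and the Myo9a window 37, counts reached by 6.23% and 5.58% of windows. The Myo6 window holds 22, the first Myo10 window 23 and the second Myo10 window 6, against a median of 7 and quartiles of 3 and 20 over all windows. CAGCTG occurs 1 time in each Myo7a window and in none of the printed or counted windows of Myo5a, Myo6, Myo10 and Myo9a. It occurs in 16.3% of all windows, so a match describes the letters and marks no binding site.

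In the same build, Myo7a lies on chromosome 7 at chr7:98051054-98119522. Myo5a (chr9:75069799-75223688), Myo6 (chr9:80164976-80311729) and Myo9a (chr9:59750848-59928866) lie on chromosome 9, Myo10 on chromosome 15 at chr15:25622550-25813673, and Myo5b on chromosome 18. No RefSeq gene overlaps Myo7a. The other members overlap only pseudogenes and long non-coding RNAs, none of which is in the count table.

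Total counts ran from 17417529 in OPC control 1 to 19680398 in OPC control 2. Levels are given as CPM, counts relative to a library size scaled by the trimmed mean of M-values. They are compared for 1 gene between libraries and not between genes, because transcript lengths were not used here. The precursor markers Pdgfra and Cspg4 were high in OPCs, with Pdgfra between 3300 and 4430 CPM there and between 497 and 821 CPM in iOLs. The myelin gene Mbp was uneven in OPC controls, at 1120 and 3470 CPM. Eed itself averaged 19.3 ± 3.49 CPM in OPC control (SD, n = 2) and 12.5 ± 0.749 in OPC Eed cKO (n = 3), and 19.6 ± 2.27 in iOL control (n = 2) and 13.4 ± 1.79 in iOL Eed cKO (n = 2). The cKO libraries were below the controls at both stages, by a log2 difference of −0.62 ± 0.17 (SE) in OPCs and −0.55 ± 0.18 in iOLs. Both missed the threshold of 0.05 (edgeR quasi-likelihood, Benjamini-Hochberg adjusted p = 0.085 and 0.097). Reads from exons that a deletion leaves in place would still count, and no source used here names the deleted exons.

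Myo7a was the member that was low in every cKO library. In OPC control it stood at 9.26 and 11.5 CPM, from 158 and 219 counts. In OPC Eed cKO it stood at 1.52, 0.808 and 0.671 CPM, from 28, 15 and 13 counts. The highest knockout library was thus far below the lowest control library. In iOL control the level was 10.4 and 13.4 CPM, and in iOL Eed cKO 1.76 and 2.59 CPM, again with no overlap. The log2 difference was −3.38 ± 0.33 in OPCs and −2.45 ± 0.35 in iOLs. From the summed counts, the knockout level was 10.5-fold lower in OPCs (exact 95% interval 7.93 to 14.2) and 5.5-fold lower in iOLs (4.33 to 7.05), intervals that cover counting error alone. These differences chose the gene, so they are a description with no test. In bulk libraries, fewer cells that express a gene and less RNA per cell cannot be told apart.

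Myo5b moved the other way. It stood at 1.76 and 1.26 CPM in OPC control and at 4.39, 6.68 and 5.68 CPM in OPC Eed cKO. In iOLs it stood at 47.0 and 38.1 CPM in controls and at 115 and 107 CPM in the knockout. All knockout libraries were above all controls of their stage. The log2 difference was 1.89 ± 0.24 in OPCs, a 3.73-fold ratio of summed counts (exact 95% interval 2.79 to 5.08), and 1.38 ± 0.19 in iOLs, 2.61-fold (2.46 to 2.77). The OPC control values rest on 30 and 24 counts.

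The other 4 members showed smaller differences between genotypes. Myo5a stood at 220 and 240 CPM in OPC control, and at 391, 405 and 258 CPM in OPC Eed cKO. In iOLs the order was opposite, with 462 and 465 CPM in controls and 350 and 338 CPM in the knockout. The log2 difference was 0.61 ± 0.19 in OPCs and −0.43 ± 0.20 in iOLs. Myo9a had the same shape at a lower count, with 58.5 and 72.2 CPM in OPC control against 95.6, 107 and 72.0 CPM in the knockout, and 116 and 115 CPM in iOL control against 102 and 100 CPM. Its log2 differences were 0.49 ± 0.17 and −0.20 ± 0.18, and its OPC groups overlapped. Myo10 was nearly flat in OPCs, at 139 and 183 CPM against 165, 155 and 163 CPM, a log2 difference of 0.00 ± 0.14. In iOLs it was at 192 and 169 CPM in controls and 259 and 211 CPM in the knockout, 0.38 ± 0.16. Myo6 varied more within groups than between them, at 142 and 314 CPM in OPC control, 158, 164 and 272 CPM in OPC Eed cKO, 290 and 269 CPM in iOL control and 311 and 262 CPM in iOL Eed cKO. Its log2 differences were −0.21 ± 0.32 in OPCs and 0.04 ± 0.35 in iOLs, and the OPC value turned to 0.48 without OPC control 2.

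**Figure D1:**
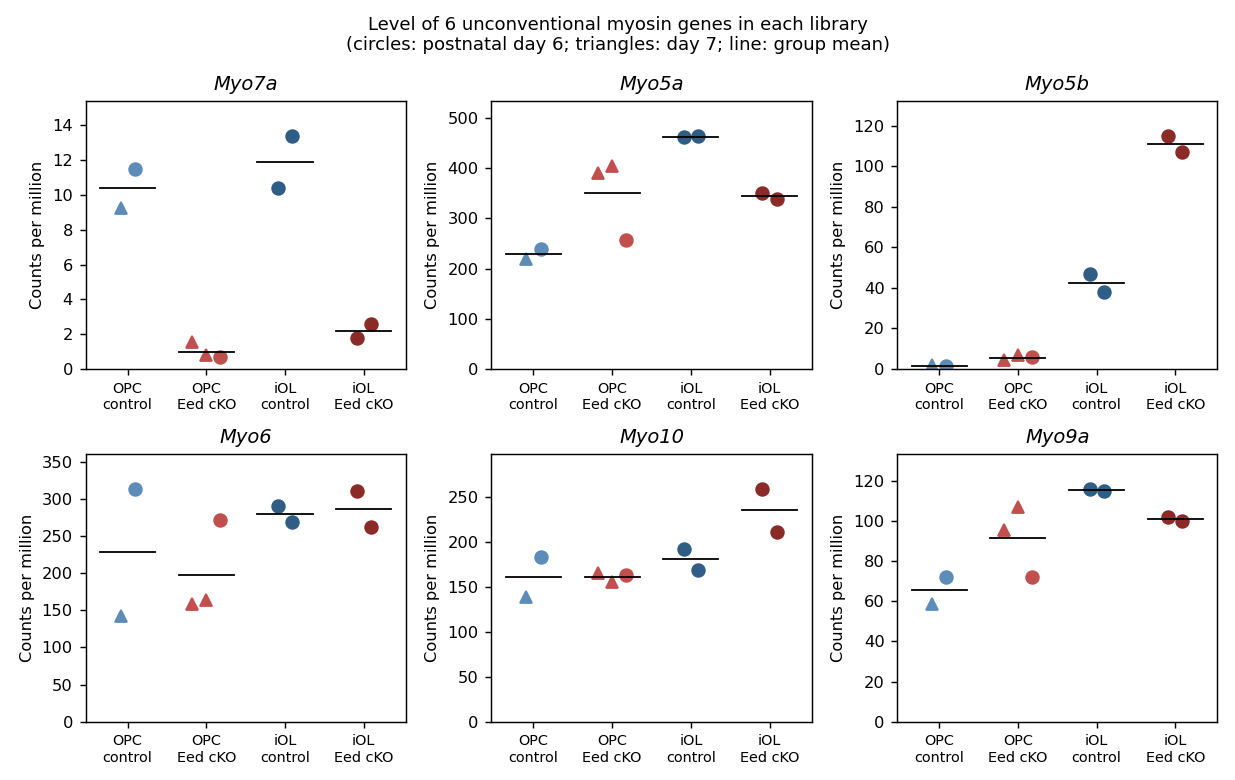
CPM of each of the 6 members in each of the 9 libraries on a linear axis from 0, with circles for postnatal day 6, triangles for day 7 and a line at each group mean. Myo7a sits between 9.26 and 13.4 CPM in the controls and between 0.671 and 2.59 CPM in the cKO libraries, while Myo5b rises from under 2 CPM in OPC controls to 107 and 115 CPM in iOL Eed cKO.

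Across all genes, edgeR called 440 of 13549 genes in OPCs (3.25%), 399 higher and 41 lower without Eed, and 1434 in iOLs (10.6%), 959 higher and 475 lower. Of the members, 1 was called lower (Myo7a) and 1 higher (Myo5b) at each stage, and 4 were not called. Because these contrasts chose the members, no significance is read from that count. The median log2 difference of the 6 was 0.24 in OPCs and −0.08 in iOLs, beside −0.023 and −0.004 over all genes. Both comparisons use the control libraries of their own stage only, but the stage comparisons below share them.

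**Figure D2:**
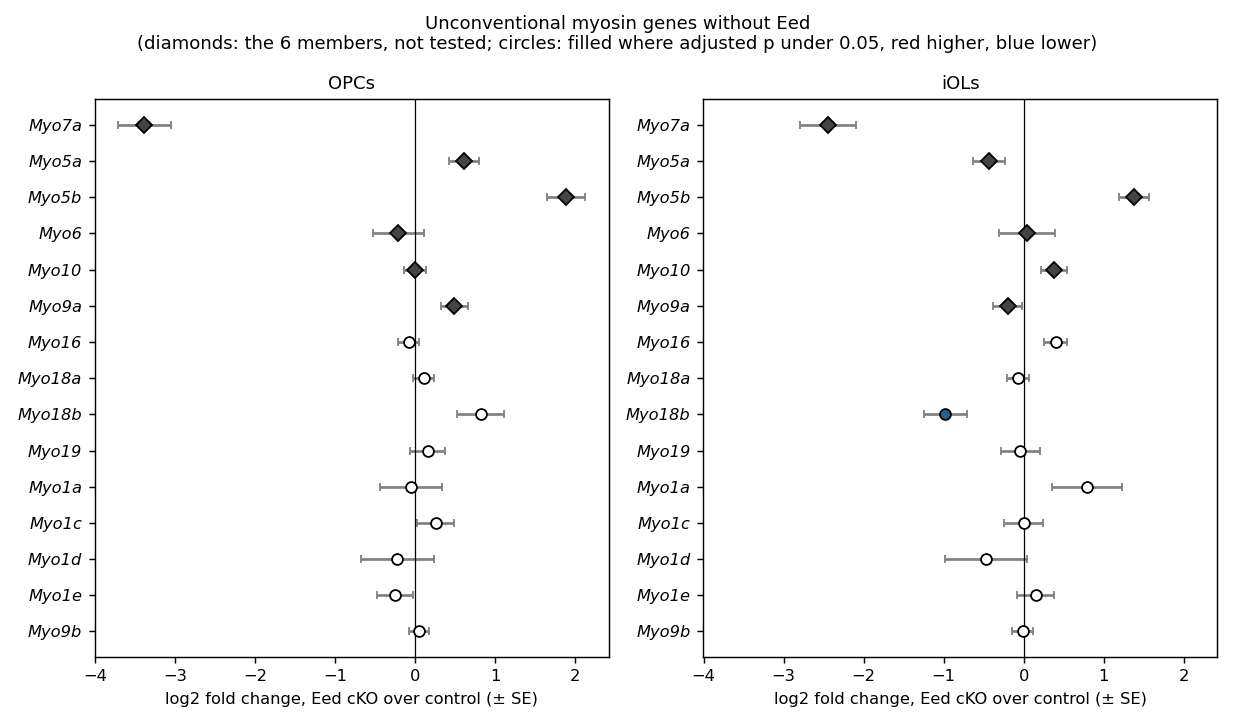
Log2 fold change of Eed cKO over control, with SE, in OPCs and in iOLs, for the 6 members (diamonds, not tested) and 9 other measured unconventional myosins (circles, filled where the adjusted p was under 0.05). Myo7a lies at −3.38 and −2.45 and Myo5b at 1.89 and 1.38, and the remaining genes lie nearer to 0.

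Postnatal day was split over the OPC groups, so the differences were also read within each day. For Myo7a the log2 difference was −2.94 on day 7, with 2 knockout libraries and 1 control, and −3.90 on day 6, with 1 of each. For Myo5b it was 1.57 on day 7 and 2.08 on day 6. Both genes therefore differed in the same direction on both days. For Myo5a it was 0.86 on day 7 and 0.10 on day 6, and for Myo9a 0.79 and 0.00, so the OPC differences of these 2 genes were present in the day 7 libraries and near 0 on day 6. Myo6 was higher on day 6 than on day 7 by 1.14 in OPC control and by 0.76 in OPC Eed cKO. Day is represented by 1 control library each, so day and library cannot be told apart.

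The stage contrasts are not those of the rule that named the members, and are given with tests, although the members were chosen with earlier results of these data known. In controls, Myo5b was 28.2-fold higher in iOLs than in OPCs (log2 4.82 ± 0.25, adjusted p = 3.8e-06 by edgeR's quasi-likelihood test). Myo5a was 2.02-fold higher (1.01 ± 0.20, adjusted p = 0.0033) and Myo9a 1.77-fold higher (0.82 ± 0.18, adjusted p = 0.0052). In all 3 genes both iOL controls were above both OPC controls. The share of all genes separated in this way was not counted, so nothing is read from that separation. Myo7a did not pass, with 11.9 ± 2.11 CPM in iOL control and 10.4 ± 1.61 in OPC control (SD, n = 2 each), a log2 difference of 0.20 ± 0.32 (adjusted p = 0.63). Neither did Myo6 (0.29 ± 0.35, adjusted p = 0.53) nor Myo10 (0.17 ± 0.16, adjusted p = 0.42). Over all genes 46.3% were called in this comparison, so 3 of 6 is close to the background. For Myo6 the result depended on 1 library: without OPC control 2 it was 0.97 (adjusted p = 0.0305), and without OPC control 1 it was −0.17.

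In the knockout, Myo5b was again far higher in iOLs, by 19.8-fold (4.31 ± 0.19, adjusted p = 2.6e-06). Myo10 rose 1.46-fold (0.55 ± 0.14, adjusted p = 0.014) and Myo7a 2.17-fold (1.12 ± 0.36, adjusted p = 0.034), from 0.999 ± 0.455 CPM in OPC Eed cKO (SD, n = 3) to 2.17 ± 0.59 CPM in iOL Eed cKO (n = 2). For Myo7a these are 56 and 82 summed counts, and both iOL libraries were above all 3 OPC libraries. The low knockout values of Myo7a are among those that chose it. Its p-value here is therefore not independent of that choice, and no significance is read from it. Myo5a (−0.03 ± 0.18, adjusted p = 0.91), Myo9a (0.14 ± 0.16, adjusted p = 0.52) and Myo6 (0.53 ± 0.32, adjusted p = 0.22) did not pass. In the day 6 libraries alone, with 1 OPC Eed cKO library, Myo5a was 0.42 and Myo9a 0.5 on the log2 scale. The values near 0 of these genes thus did not hold within day 6. Over all genes 40.3% were called, against 3 of the 6 members. All iOL libraries were from day 6 and 2 of the 3 OPC Eed cKO libraries from day 7, and the Myo7a call was lost with day as a term (adjusted p = 0.0563) and with the replicate block (0.103). It did not hold without OPC Eed cKO 2 or 3 or without iOL Eed cKO 1 or 2 (adjusted p 0.0514 to 0.242), and the Myo10 call did not hold without OPC Eed cKO 2 (0.0527) or iOL Eed cKO 1 (0.147).

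**Figure D3:**
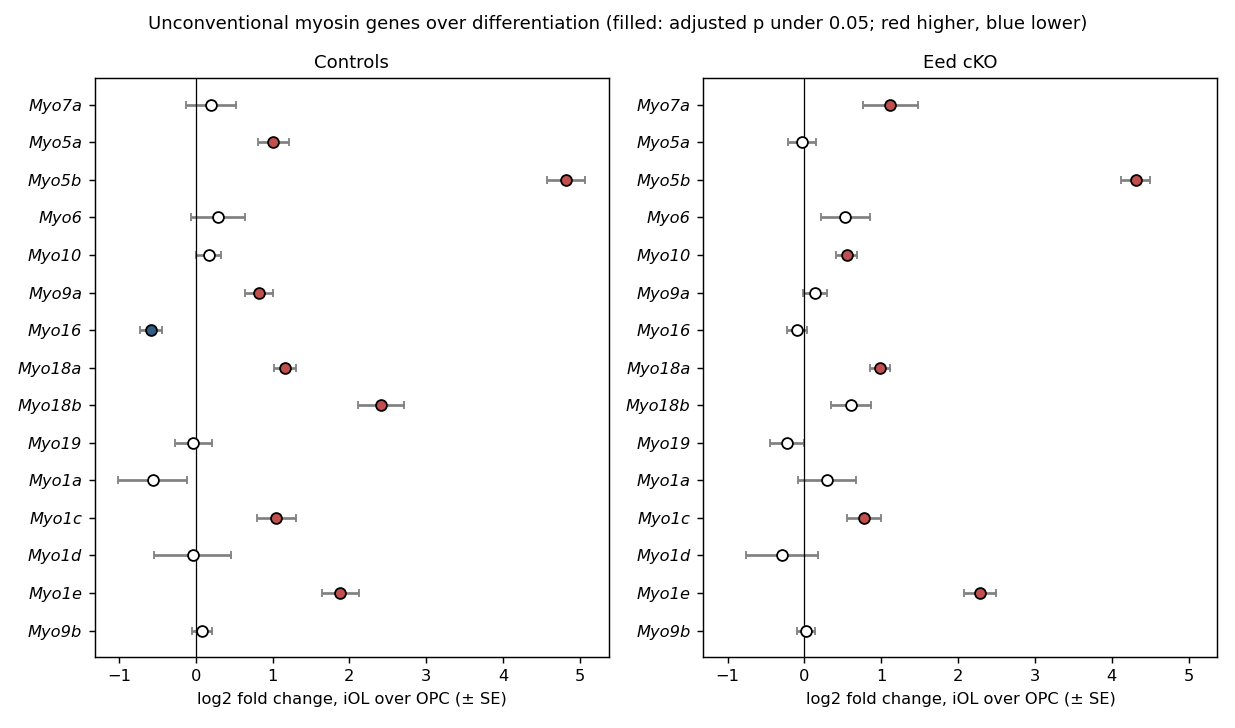
Log2 fold change of iOLs over OPCs, with SE, in controls and in Eed cKO for the 6 members and 9 other measured unconventional myosins, filled where the adjusted p was under 0.05. Myo5b lies at 4.82 and 4.31, while Myo5a lies at 1.01 in controls and −0.03 in the knockout, where the day 6 libraries alone gave 0.42 (not plotted).

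The difference between the knockout effects in iOLs and in OPCs was called for 1.83% of all genes (248) and for 0 members. Myo5a came nearest, with a difference of −1.04 ± 0.28 on the log2 scale (adjusted p = 0.094 by edgeR's quasi-likelihood test). Among the 5 members other than Myo7a, 2 had an unadjusted p under 0.05, Myo5a and Myo9a (−0.68 ± 0.24, adjusted p = 0.19), beside 2475 of all 13549 genes. This difference is built from the genotype contrasts behind the choice of members. The p-values of members in this paragraph are therefore not independent of that choice, and no significance is read from them. DESeq2 called 1 member, Myo5a (−1.06, adjusted p = 0.00852), and over its alternatives the adjusted p of Myo5a ran from 0.00852 to 0.298. It passed without OPC control 2 (0.0459) and without OPC Eed cKO 3 (0.0103), and Myo9a passed without OPC Eed cKO 3 (0.0308). Myo5b (−0.51 ± 0.31, adjusted p = 0.41), Myo10 (0.38 ± 0.21, adjusted p = 0.37) and Myo6 (0.24 ± 0.48, adjusted p = 0.81) did not pass. For Myo7a, which was chosen on these effects, the value was 0.92 ± 0.48 and is given with no test.

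Among 19 other unconventional myosins listed, 9 were in the count table. None of the 9 was called without Eed in OPCs by edgeR, against 3.25% of all genes, and their median log2 difference was 0.05. In iOLs 0 rose and 1 fell, Myo18b, a divergent myosin known from muscle, from 6.34 ± 0.216 to 3.21 ± 0.623 CPM (SD, n = 2 each; −0.98 ± 0.27, adjusted p = 0.049). That call was lost without any single iOL library and without OPC Eed cKO 1 or 2 (adjusted p up to 0.32). With differentiation in controls 4 of the 9 rose and 1 fell, beside 46.3% of all genes called. Myo18b (2.41 ± 0.30), Myo1e (1.88 ± 0.24), Myo18a (1.16 ± 0.14) and Myo1c (1.05 ± 0.25) rose, and Myo16 (−0.58 ± 0.14) fell. The Myo1c and Myo16 calls were lost without iOL control 2 (adjusted p 0.072 each). In the knockout Myo1e, Myo18a and Myo1c rose and 0 fell, 3 of 9 beside 40.3% of all genes. The Myo1c call was lost there without OPC Eed cKO 2 (0.065) or iOL Eed cKO 1 (0.061) or 2 (0.12), with the replicate block (0.051) and in the day 6 libraries alone (0.069). Myo9b, the closest relative of Myo9a, was between 132 and 165 CPM in all 9 libraries and was not called in any comparison.

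Of 14 conventional heavy chains, 6 were measured. Without Eed, Myh9, non-muscle myosin IIA, rose in OPCs from 59.4 ± 5.98 (SD, n = 2) to 90.3 ± 5.39 CPM (n = 3; 0.60 ± 0.13, adjusted p = 0.039), a call lost without OPC control 1 (0.16) and 4 other single libraries, and none was called in iOLs. With differentiation in controls Myh8, Myh9 and Myh14 rose and Myh7b fell, 4 of 6 beside 46.3% of all genes; the Myh14 call was lost without OPC control 2 (0.064) or iOL control 1 (0.13). Of 18 light chains and calmodulins, which bind the lever arms of myosins, 10 were measured and 0 were called for genotype at either stage. In controls 5 rose and 1 fell with differentiation, beside 46.3% of all genes called, and in the knockout 6 rose, beside 40.3%. Myl9, a regulatory light chain of non-muscle myosin II, rose by 2.68 ± 0.33 on the log2 scale in controls and by 3.41 ± 0.29 in the knockout.

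Partners of myosin VIIa at hair-cell stereocilia, including the Usher proteins, made up a list of 18 genes, 14 of them measured. In OPCs without Eed 4 rose and 0 fell, where 2.94% of all genes rose and 0.303% fell, and the median log2 difference of the 14 was 0.45. Cdh23, the cadherin of the stereocilia tip link, rose from 0.966 ± 0.123 (SD, n = 2) to 4.85 ± 0.596 CPM (n = 3; log2 2.32 ± 0.33, adjusted p = 0.0057). Espn, an actin-bundling protein, rose from 0.981 ± 0.27 to 3.6 ± 0.286 CPM (1.87 ± 0.29, adjusted p = 0.01). Whrn, a scaffold of stereocilia tips, rose from 30.0 ± 1.37 to 64.7 ± 13.0 CPM (1.11 ± 0.20, adjusted p = 0.017). The remaining gene, Adgrv1, an adhesion receptor of the ankle links, rose by 1.09 ± 0.20 (adjusted p = 0.021) and is named after its value was seen. In the 4 genes the calls were lost in the day 6 libraries alone, where 1 control met 1 knockout. Those of Whrn and Adgrv1 were also lost without OPC control 1, which left 1 control. They were lost too without OPC Eed cKO 1 (edgeR adjusted p 0.073 and 0.089) or 2 (0.068 and 0.074). With the compared groups alone neither passed (0.052 and 0.07). In iOLs Espn (2.20 ± 0.37, adjusted p = 0.0069) and Whrn (1.0 ± 0.21, adjusted p = 0.018) rose and Eps8, an actin-capping protein, fell (−0.62 ± 0.14, adjusted p = 0.023), 3 of 14 beside 10.6% of all genes. Without iOL control 1 the Espn, Whrn and Eps8 calls were lost. The Whrn call was also lost without iOL control 2 or iOL Eed cKO 1, and the Eps8 call without any single iOL library. With differentiation 6 of 14 fell and 1 rose in controls, where 25.3% of all genes fell, and 7 fell and 2 rose in the knockout, where 21.8% fell. Pcdh15, the partner of Cdh23 in the tip link, fell by 2.49 ± 0.25 in controls and by 3.25 ± 0.25 in the knockout.

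Of 22 cargo adaptors of myosins V and VIIa, 20 were measured. In OPCs without Eed 2 rose and 0 fell, beside 3.25% of all genes called. Rab11fip1, an adaptor between Rab11 and myosin Vb, rose from 0.632 ± 0.148 (SD, n = 2) to 3.63 ± 0.894 CPM (n = 3; 2.5 ± 0.38, adjusted p = 0.0083), and Myrip, which links Rab27a to myosins VIIa and Va, rose from 13.9 ± 3.89 to 27.2 ± 1.61 CPM (0.96 ± 0.18, adjusted p = 0.021). Without OPC control 1 neither passed (adjusted p 0.073 and 0.063), and the Myrip call was also lost without OPC Eed cKO 1 (0.093) or 2 (0.078). In iOLs 3 rose and 4 fell, beside 10.6% of all genes called. Rab11fip1 (1.80 ± 0.35, adjusted p = 0.012), Rab27b (1.41 ± 0.23, adjusted p = 0.0054) and Spire2 (1.29 ± 0.21, adjusted p = 0.0059) rose. Without iOL control 1 these calls were lost. The Rab11fip1 call was also lost without iOL control 2 or iOL Eed cKO 2, and the Spire2 call without iOL control 2. The 4 that fell were Dynll2 (−1.1 ± 0.24) and Dynll1 (−1.0 ± 0.19), dynein light chains that also bind myosin Va, Rab3a (−1.09 ± 0.26), a GTPase of secretory vesicles, and Rab11fip2 (−0.58 ± 0.15), a Rab11 adaptor. Their adjusted p was 0.01 to 0.041, and each call was lost without any single iOL library (up to 0.25); these 4 are named after their values were seen. With differentiation 8 of the 20 rose and 5 fell in controls, beside 46.3% of all genes called. In the knockout 4 rose and 4 fell, beside 40.3%. Rab27a, the GTPase that recruits myosin Va to melanosomes, fell with differentiation by 2.29 ± 0.31 in controls and by 1.39 ± 0.27 in the knockout.

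In the remaining lists the genotype calls were read beside the 3.25% of all genes called in OPCs and the 10.6% called in iOLs. Of 12 adaptors of myosin VI, 10 were measured; 0 were called in OPCs, and in iOLs Gipc1, an endocytic adaptor, fell from 154 ± 10.3 to 87.2 ± 8.16 CPM (SD, n = 2 each; −0.82 ± 0.16, adjusted p = 0.013), a call lost without any single iOL library (adjusted p up to 0.12). All 19 filopodial genes and partners of myosin X were measured; 0 were called in OPCs and 1 in iOLs, Acvrl1, a receptor of the BMP family, whose mean stayed at or under 1.06 CPM and whose call was lost without 6 of 9 single libraries (adjusted p up to 0.21). Of the 16 genes of the RhoA pathway, in which myosin IXa acts, 1 rose in OPCs, Arhgap5 (0.96 ± 0.21, adjusted p = 0.043), and 1 fell in iOLs, Arhgap35 (−0.81 ± 0.15, adjusted p = 0.011). Both encode RhoA GTPase-activating proteins. The Arhgap5 call was lost without any of 7 single libraries (adjusted p up to 0.17), and the Arhgap35 call without any single iOL library (adjusted p up to 0.11). With differentiation in controls, 7 of the 16 RhoA genes rose and 2 fell, beside 46.3% of all genes called. Of the 19 filopodial genes 4 rose and 1 fell, and of the 10 adaptors of myosin VI 5 rose and 1 fell. Among the largest of these changes, Arhgap5 rose by 2.54 ± 0.24 and Itgb3, an integrin subunit, by 2.91 ± 0.23, while Dab2, a clathrin adaptor of myosin VI, fell by 1.65 ± 0.17.

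Eed and Myo7a lie on the same chromosome, with starts 8.1 Mb apart, so the genes between them were examined. Of 31 measured genes between them, 2 were called lower and 0 higher in OPCs (6.45%), and 2 lower and 1 higher in iOLs (9.68%), beside 3.25% and 10.6% of all genes. On the whole of chromosome 7, 2.83% of 1024 genes were called in OPCs and 8.59% in iOLs. Next to Eed, 48.2 kb from its end, E230029C05Rik, a long non-coding RNA with 1 to 17 counts per library, differed by −2.76 ± 0.50 in OPCs and −2.0 ± 0.46 in iOLs (adjusted p 0.018 and 0.025). Without OPC control 1 (0.091), OPC Eed cKO 1 (0.069) or 2 (0.073) its OPC call was lost, and without any single iOL library its iOL call was lost (up to 0.15). The remaining calls were Fam181b, lower in OPCs (−0.69 ± 0.15, adjusted p = 0.036), and Rab30, higher (0.63 ± 0.16, adjusted p = 0.038), and Gab2, lower (−0.67 ± 0.17, adjusted p = 0.033), in iOLs. Each of these 3 calls was lost without at least 5 single libraries (adjusted p up to 0.17, 0.24 and 0.23). Of the 5 measured genes on each side of Myo7a, 0 were called in OPCs. In iOLs 1 was, the adjoining Capn5, a calpain protease, which fell by 0.85 ± 0.11 as a log2 difference, at an adjusted p of 0.0018, and kept its call under all 17 alternatives. In OPCs Capn5 differed by −0.16 ± 0.10 (adjusted p = 0.32). Aamdc, Rsf1, Clns1a, Aqp11, Pak1, Omp, Acer3, Tsku and Emsy were not called at either stage.

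**Figure D4:**
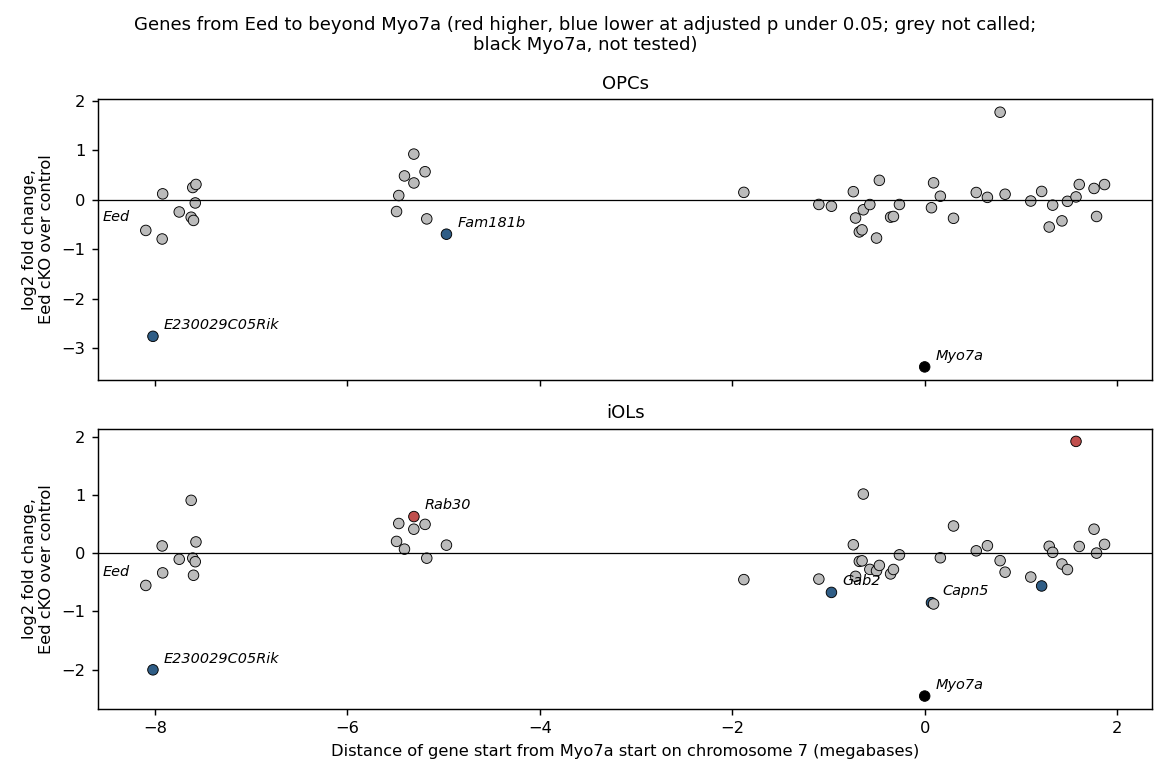
Log2 fold change of Eed cKO over control for measured genes on chromosome 7, plotted against distance from the start of Myo7a in megabases, for OPCs and iOLs. Myo7a (black, not tested) lies at −3.38 and −2.45; most genes between it and Eed, 8.1 Mb away, lie near 0, E230029C05Rik beside Eed is at −2.76 and −2.0, and the unlabelled coloured points beyond Myo7a in iOLs are Map6 (blue) and Tpbgl (red).

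The 5 genes whose profile over the 9 libraries was nearest to that of Myo7a were E230029C05Rik, Aplnr, B230311B06Rik, Cnp and Neu4. Likeness was the root mean square difference of log2 CPM after each gene's mean was removed, over 13548 genes, and was 0.66, 0.77, 0.86, 0.96 and 0.99, where the SD of Myo7a itself was 1.66. Aplnr, the apelin receptor, was at 1.29 to 3.63 CPM in the 4 controls and 0.377 to 0.899 CPM in the 5 knockout libraries. B230311B06Rik, a long non-coding RNA on chromosome 7 (chr7:118592285-118596838), was at 0.666 to 1.58 CPM in controls and 0.106 to 0.326 CPM in the knockout. Cnp, a myelin enzyme, was at 501 and 815 CPM in OPC control and 302 to 370 CPM in OPC Eed cKO, and at 1410 and 1430 CPM in iOL control and 322 and 464 CPM in iOL Eed cKO. Neu4, a sialidase, was at 66.0 to 88.0 CPM in controls and 13.2 to 31.8 CPM in the knockout. In each of these genes the control libraries lay above the knockout libraries, which is the pattern that selected them. The likeness was not tested, and no significance is read here from their genotype differences.

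**Figure D5:**
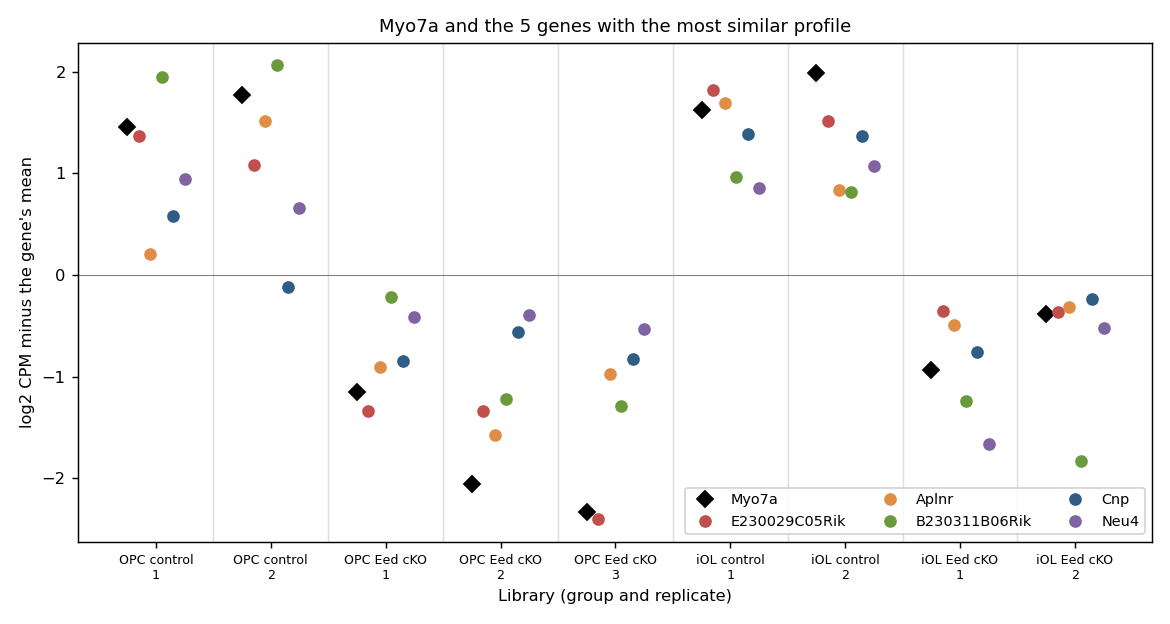
Log2 CPM minus the gene's own mean in each of the 9 libraries, for Myo7a (diamonds) and the 5 genes with the most similar profile (circles). The controls lie above the knockout libraries, and Cnp is at 501 and 815 CPM in OPC controls and at 1410 and 1430 CPM in iOL controls.

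Markers of other cells were read beside these results. The oligodendrocyte list, with 11 of 12 genes measured, summed to 3130 to 8000 CPM in OPC control, 1760 to 3770 in OPC Eed cKO, 10500 to 10700 in iOL control and 2560 to 3650 in iOL Eed cKO. Without Eed 1 of the 11 was called lower in OPCs, where the summed ranges overlapped, and 7 in iOLs, where they did not. The OPC call, Cnp, was lost without 7 of 9 single libraries. In iOLs the calls of Mbp, Mobp and Enpp6 were lost without any single iOL library. Those of Bcas1 and Myrf were lost without iOL Eed cKO 1, and Cnp kept its call under all 17 alternatives. These genes are named after their values were seen. Over all genes 0.303% were called lower in OPCs and 3.51% in iOLs. The part of this list in the Myo7a difference was not tested. Of 6 hair-cell markers only Espn was in the table, and Pou4f3, Atoh1, Otof, Gfi1 and Slc17a8 were not. Of 9 melanocyte and retinal pigment markers 4 were measured, with Tyr, Tyrp1, Mlana, Rpe65 and Best1 not in the table. They summed to 447 to 497 CPM in OPC control and 554 to 688 CPM in OPC Eed cKO, and to 68.5 to 75.8 CPM in iOL control and 113 to 136 CPM in iOL Eed cKO. The sums do not show single genes: the median log2 difference of the 4 without Eed was −0.48 in OPCs and −0.53 in iOLs. In OPCs 0 were called, and in iOLs 1 was higher and 1 lower, beside 3.25% and 10.6% of all genes called. Flt1 and Kdr, the 2 of 6 endothelial markers measured, summed to 1.87 to 2.79, 9.7 to 10.5, 35.3 to 40.4 and 87.5 to 103 CPM in the 4 groups in that order. Without Eed both were called higher at each stage. The Kdr call in OPCs was lost without 5 of 9 single libraries and the Flt1 call in iOLs without 3. The 2 genes differed over stage. With differentiation in controls 1 was called higher and 0 lower, beside 46.3% of all genes called. In the knockout 1 was higher and 1 lower, beside 40.3%. Cldn5, Pecam1, Cdh5 and Tek were not in the table, and the part of endothelial cells in the Myo5b difference was not tested. Astrocyte markers, 8 of 8 measured, summed to 3420 to 9630 CPM in OPC control, 2990 to 7710 in OPC Eed cKO, 6290 to 6500 in iOL control and 9460 to 11400 in iOL Eed cKO. Without Eed their median log2 difference was −0.71 in OPCs and 0.49 in iOLs. In OPCs 1 was called lower, a call lost without 4 of 9 single libraries, and in iOLs 0 were called, beside 3.25% and 10.6% of all genes. Neuronal markers, 7 of 7, summed to 125 to 195 CPM in OPC control, 164 to 230 in OPC Eed cKO, 164 to 171 in iOL control and 262 to 298 in iOL Eed cKO. Of the 7, Gad2, an enzyme of GABA synthesis, rose without Eed in OPCs (2.55 ± 0.19, adjusted p = 0.00015), and Gad2 (1.0 ± 0.19, adjusted p = 0.012) and Tubb3, a neuronal tubulin (0.65 ± 0.17, adjusted p = 0.044), rose in iOLs. Over all genes 2.94% rose in OPCs and 7.08% in iOLs. Both iOL calls were lost without any single iOL library. The Tubb3 call was also lost without OPC Eed cKO 1 (edgeR adjusted p 0.068) or 2 (0.071) and with the replicate block (0.054). Both genes are named after their values were seen, and the part of neuronal cells in the member differences was not tested.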

How the data were processed

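RNA was measured in 9 libraries of the series' 13 samples, and 4 chromatin samples were not analysed here. The authors deposited a table of raw read counts per gene, 13549 genes with no count under 1 in any library, so genes with lower counts were already absent; 1 row that repeated column headings was left out. The submitters' processing notes name cutadapt 1.14, STAR 2.6.0, featureCounts, Subread 1.6.2, Bowtie2, Picard 2.8.3-7, MACS2 2.1.1 and the mm10 build, without roles; no source used here states the strand setting. Totals were 17417529 to 19680398.

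Counts were fitted with edgeR 4.0.16 (limma 3.58.1, R 4.3.3): TMM scaling, filterByExpr with a minimum count of 10, 4 group means over all 9 libraries, quasi-likelihood tests, Benjamini-Hochberg adjustment over all genes, and calls under 0.05. The biological coefficient of variation was 16.3%, with 5 residual degrees of freedom. SEs were derived from the F statistics. Exact intervals cover counting error only. Symbols matched RefSeq for 13524 of 13549 genes (99.8%).

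The members and gene lists were chosen with earlier results of these data known. Named genes were the members, the measured myosin heavy chains (1 is not reported here), the 2 largest called changes per other list and comparison, neighbours and called genes on chromosome 7 between Eed and Myo7a, and the 5 nearest profiles (prior count 2). Of the lists used, microglial markers had 1 of 7 genes in the table (P2ry12, 1.12 to 2.48 CPM), ependymal and choroid markers 3 of 7 (13.1 to 51.3 CPM) and pericyte, fibroblast and meningeal markers 6 of 7 (27.1 to 102 CPM). Alternatives were RLE size factors, no filter, a minimum of 1 CPM in 4 libraries, the compared groups alone, a replicate block, postnatal day as a term, DESeq2 1.42.0, a prior count of 0.5 and each library left out; the day 6 libraries alone were added after seeing the data.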

Additional observations from a re-analysis of the deposited data

Results flagged for a closer look

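Spire2, an actin nucleator that acts with myosin V on vesicles, had a knockout effect that differed between the stages by a test of the difference itself. It averaged 26.6 ± 7.38 CPM in OPC control (SD, n = 2) and 23.3 ± 1.43 in OPC Eed cKO (n = 3), and 4.15 ± 0.0127 in iOL control and 10.2 ± 0.292 in iOL Eed cKO (n = 2 each). The difference of effects was 1.48 ± 0.27 on the log2 scale (edgeR quasi-likelihood, adjusted p = 0.036), with both iOL Eed cKO libraries above both iOL controls and the OPC groups overlapping. The call was lost without any single iOL library and without OPC Eed cKO 1 or 2 (adjusted p up to 0.16).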

How the results depend on the processing

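Over 17 alternatives, 9 of which left out 1 library, 504 log2 differences of the members were recomputed and 463 kept their direction and their side of the threshold, or moved by under 1 SD. The differences of Myo7a and Myo5b without Eed kept their sign throughout, at −4.09 to −3.13 and 1.66 to 2.16 in OPCs and at −2.76 to −2.20 and 1.24 to 1.54 in iOLs. Counts of called genes depended far more on the setting. In OPCs the 440 became 190 with the compared groups alone, 1382 with postnatal day as a term, 1006 with DESeq2 and 66 in the day 6 libraries alone, and 164 to 3935 with 1 library left out (3935 without OPC control 2); with the day term 848 of the 1382 were higher, against 399 of 440. In iOLs the 1434 became 3699 with the compared groups alone, 2680 with the day term and 3728 on day 6, and 349 to 2236 with 1 library left out (349 without iOL control 1). The stage counts of 6270 and 5461 ran from 4057 to 7236 in controls and from 3080 to 6883 in the knockout, and the 248 genes of the difference of effects became 1202 with the day term, 823 with DESeq2, 416 on day 6 and 2 to 2156 with 1 library left out. Members called were 1 on day 6 and 2 to 4 with 1 library left out in OPCs, 4 with the compared groups alone and 4 on day 6 in iOLs, 5 on day 6 and 1 to 3 with 1 library left out for stage in the knockout, and 1 with the day term, 1 with DESeq2 and 0 to 2 with 1 library left out for the difference of effects.

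Reversed signs fell on members that did not pass the test. For stage in controls, Myo6 was −0.07 with the day term, −0.16 on day 6 and −0.17 to 0.97 with 1 library left out, and Myo10 −0.01 on day 6 and −0.02 to 0.38. For stage in the knockout, Myo5a was 0.19 with the day term, 0.42 on day 6 (adjusted p = 0.0065 by edgeR) and −0.21 to 0.08 with 1 library left out, Myo6 −0.04 with the day term, and Myo9a −0.01 to 0.26 with 1 library left out and 0.50 on day 6 (adjusted p = 0.0028). For the difference of effects Myo6 was −0.44 to 0.70. Without Eed, Myo6 ran from −0.67 to 0.48 in OPCs and −0.09 to 0.15 in iOLs, and Myo10 from −0.19 to 0.21 in OPCs. The cause was not tested.

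Replicate numbers are shared between groups, but deviations of same-numbered libraries correlated at 0.313 and −0.352 in OPCs and 0.239 in iOLs, so the numbers were not taken as pairs. OPC libraries of the same postnatal day correlated at 0.313, 0.352 and 0.43 across genotypes, and those of different days at −0.43 to −0.313; with 2 controls, the deviations of one are the negative of the other's, so these values are not independent. With a replicate block 1941 genes were called in OPCs (1223 higher), 1049 for the difference of effects, 4 members in OPCs and 2 for the difference of effects, Myo5a (adjusted p = 0.0191) and Myo9a (0.035); Myo9a for stage in the knockout was 0.00, and Myo7a there lost its call (0.103). The Myo7a stage call in the knockout was also lost with the compared groups alone (0.0562) and with the day term (0.0563). Of the 5 profiles nearest to Myo7a, 4 were shared with a prior count of 0.5. Levels per transcript length were not run, because only gene spans were given. Low counts limit Myo7a in the knockout, Myo5b in OPC controls and E230029C05Rik.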
